A study of Mus musculus with 2 samples.

Results

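REST, the RE1-silencing transcription factor encoded by Rest, was followed here together with 5 genes tied to it: Rcor1, Rcor2 and Rcor3, which encode the CoREST family of corepressors, Sin3a, which encodes the scaffold of the SIN3 deacetylase complex, and Htt, which encodes huntingtin. These 6 of the 31053 genes in the count matrices were chosen as REST, its direct corepressors and the cytoplasmic protein that binds it. They were also selected on their measured levels and shares of nuclei by label, already known from these files, so levels and differences between cell labels are given for the 6 genes as a description, without a p-value.

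REST binds a DNA element called RE1 through its zinc fingers and holds neuronal genes silent in non-neuronal cells and in neural progenitors. Its amino end recruits SIN3A with histone deacetylases, and its carboxyl end recruits CoREST, which carries the demethylase LSD1 (Kdm1a) and HDAC1 or HDAC2. REST protein falls as neurons mature, Rest can be induced again in adult neurons by ischaemia and seizures, and wild-type huntingtin retains REST in the cytoplasm through a complex that includes HAP1 and PRICKLE1.

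The nuclei came from the injured cerebral cortex of Atf3-CreER::Sun1-sfGFP mice (Atf3-CreER:+/wt; SUN-SfGFP:+/wt), older than 7 weeks, given a closed-skull mild traumatic brain injury (mTBI). Tamoxifen at 4 and 5 days post injury (dpi) placed GFP on the nuclear envelope of cells in which the Atf3 promoter was driving Cre at that time, and GFP+/DRAQ5+ nuclei of the ipsilateral cortex were sorted at 7 dpi. One library of male and one of female nuclei was made, each from 4 pooled animals. Every nucleus therefore carried both alleles, had seen tamoxifen and injury, and had been selected for Atf3 promoter activity. No uninjured nuclei were used here, so nothing below measures a change after injury, and library, sex and pool of animals cannot be told apart. For the female library the sex and source fields say male while its title says F. Xist had 36945 UMIs (unique molecular identifiers, each 1 captured transcript) in that library against 34 in the male library, and Uty had 8 against 1457, so the title was followed.

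The male library held 4044 called barcodes with 11007313 UMIs (median 1742 per labelled nucleus) and the female library 4214 with 23202158 (median 3710). The 2 libraries shared 1 barcode. The study's own labels, transferred from a motor cortex atlas, gave 15 labels with 7512 nuclei: 6 excitatory and 3 inhibitory neuronal labels (2499 nuclei), Unknown, and 5 non-neuronal ones. The paper uses Unknown for neuronal nuclei whose cortical origin it could not establish. The rule kept labels with at least 50 nuclei, so that Vip, with 61, was the smallest neuronal label inside it. L5 IT, with 35, was the largest that this limit left out. Another 573 nuclei (421 male, 152 female) were not used, as they lay outside the study's neuron subset and outside the Unknown and non-neuronal labels. Summed neuronal markers lay between 11935 and 21744 CPM (UMIs of the genes per 1000000 UMIs of the sum) in the neuronal labels and at 8243 and 7552 CPM in Unknown, against 2089 and 1162 CPM in Micro-PVM (microglia and perivascular macrophages). Gad1 and Gad2, the enzymes of GABA synthesis, together reached 391 to 819 CPM in the inhibitory labels and at most 95.4 CPM in the excitatory ones. Summed microglial markers, 4146 and 4291 CPM in Micro-PVM, still amounted to 286 to 798 CPM in the neuronal labels of the male library and 642 to 1722 CPM in those of the female library, highest in L2/3 IT CTX-2 and L6 IT. All 8 of these markers were detected in 2 neuronal labels of the male and 3 of the female library, and the other neuronal labels lacked at least 1. Their part in the levels was not tested, and no doublet caller was run.

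The RE1 element comes first, because it is the DNA element that REST binds. The list of REST targets used below was made of genes known as targets, without a motif search. RE1 has a left arm, searched for here as TCAGCACC, and a right arm, searched for as GGACAGC, which in a joined element meet as AGCACCNNGGAC. Both strands of the RefSeq promoters (GRCm38.p6, 250 bases before to 50 after each gene start) were searched. The left arm occurred in 542 of 32851 promoters (1.65%), the right arm in 2155 (6.56%) and the joined core in 42 (0.128%). Of the 34 REST target genes 22 were in the table, and 5, 5 and 1 of them held the 3 motifs. The promoters of Gria2, Scg2 and Unc13a are shown because they hold both arms or the joined core and belong to genes whose values follow (Tubb3, too rare to be tested, also holds both arms). Rcor2 is shown as the only one of the 5 members in the table to hold any of the motifs. Rest itself is not in that table. Capitals mark the matches, on the reverse strand of the gene in the first 3 promoters and on its forward strand in Rcor2, and the right arm of Gria2 overlaps its joined core.
Gria2, chr3:80802786-80803085, minus strand: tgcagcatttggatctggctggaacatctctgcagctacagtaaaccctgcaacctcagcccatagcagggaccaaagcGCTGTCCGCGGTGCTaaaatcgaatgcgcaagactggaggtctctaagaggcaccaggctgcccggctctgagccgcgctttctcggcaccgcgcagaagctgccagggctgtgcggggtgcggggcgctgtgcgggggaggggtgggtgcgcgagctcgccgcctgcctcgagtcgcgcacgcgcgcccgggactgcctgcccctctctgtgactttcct
Scg2, chr1:79439977-79440276, minus strand: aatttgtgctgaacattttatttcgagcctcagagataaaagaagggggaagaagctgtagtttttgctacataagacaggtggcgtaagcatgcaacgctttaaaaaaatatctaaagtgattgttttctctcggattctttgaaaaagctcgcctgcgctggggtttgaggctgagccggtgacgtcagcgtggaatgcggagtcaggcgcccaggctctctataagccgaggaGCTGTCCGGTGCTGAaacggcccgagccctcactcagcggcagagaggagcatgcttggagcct
Unc13a, chr8:71671708-71672007, minus strand: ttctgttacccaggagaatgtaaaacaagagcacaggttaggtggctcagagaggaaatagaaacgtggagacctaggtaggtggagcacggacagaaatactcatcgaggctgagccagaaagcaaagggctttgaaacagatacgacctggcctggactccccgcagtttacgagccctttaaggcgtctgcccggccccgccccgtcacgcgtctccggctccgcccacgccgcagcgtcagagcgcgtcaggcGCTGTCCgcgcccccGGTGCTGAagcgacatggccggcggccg
Rcor2, chr19:7267144-7267443, plus strand: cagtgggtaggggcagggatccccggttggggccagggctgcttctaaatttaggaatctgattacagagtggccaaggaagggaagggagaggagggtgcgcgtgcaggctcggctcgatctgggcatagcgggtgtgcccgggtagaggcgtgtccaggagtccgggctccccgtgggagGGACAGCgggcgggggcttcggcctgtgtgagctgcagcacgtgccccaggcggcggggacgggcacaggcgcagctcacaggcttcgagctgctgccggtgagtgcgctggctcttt
Gria2 encodes an AMPA receptor subunit, Scg2 the granin secretogranin II and Unc13a a protein that primes synaptic vesicles. In Scg2 the right arm lies at bases 237 to 243 and the left arm at 244 to 251, so that the arms adjoin. A match describes letters in these windows and does not show binding.

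Rest (ENSMUSG00000029249, GRCm38 chromosome 5:77265491-77286432, plus strand) was unevenly spread over the labels. It was highest among the large labels in L5 PT, the pyramidal tract neurons of layer V, at 79.6 CPM in the male library (130 UMIs, exact Poisson 95% interval 66.5 to 94.5) and 69.7 CPM in the female library (241 UMIs, 61.2 to 79.1). The 2 values average 74.7 ± 7.02 CPM (SD, n = 2 libraries). These intervals, and all those below, cover counting error only. L2/3 IT CTX-1, the larger of the labels of layer II/III intratelencephalic neurons, stood at 37.3 and 43.1 CPM (40.2 ± 4.09), and neither of its values reached the lower L5 PT value. The smaller L2/3 IT CTX-2 stood at 54.6 and 58.6 CPM on 10 and 15 UMIs. L6 IT neurons reached 55.2 and 80.4 CPM (67.8 ± 17.8), which overlapped L5 PT.

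At the other end, L6 CT (corticothalamic) neurons held 0 Rest UMIs in 41 male nuclei, where a count of 0 allows up to 14.3 CPM, and 7 UMIs (15.7 CPM) in 44 female nuclei. The nuclei labelled Unknown held 6 UMIs (6.38 CPM, 2.34 to 13.9) and 14 UMIs (8.83 CPM, 4.83 to 14.8), the lowest mean of the 15 labels. Inhibitory labels were intermediate. Parvalbumin (Pvalb) neurons stood at 36.3 and 39.2 CPM, somatostatin (Sst) neurons at 30.1 and 41.7 CPM, and Vip neurons at 24.3 and 16.7 CPM on 3 UMIs in each library. L4/5 IT neurons stood at 27.1 and 35.2 CPM. Over the 9 neuronal labels the highest mean was 9.51 times the lowest, that of L6 CT. With 0 and 7 UMIs there, this ratio is loosely determined.

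Non-neuronal nuclei were not uniformly above neurons. Micro-PVM held 61.0 and 58.9 CPM (59.9 ± 1.42), below L5 PT in both libraries and above CTX-1 in both. Astrocytes stood at 61.9 and 48.0 CPM, VLMC (vascular leptomeningeal cells) at 47.3 and 49.8 CPM, and SMC-Peri (smooth muscle cells and pericytes) at 49.9 and 92.7 CPM, the widest gap between libraries. Oligodendrocytes had 0 UMIs in 26 male nuclei, with a floor of 55.5 CPM, and 4 UMIs (20.3 CPM) in 42 female nuclei. When the labels were ordered by mean Rest level, the values of neighbours did not overlap at 3 of the 14 steps: below Micro-PVM, below VLMC and below L4/5 IT. Their counting intervals overlapped at each of these steps in both libraries. The label below Micro-PVM was CTX-2, with intervals of 26.2 to 100 and 32.8 to 96.6 CPM. The label below L4/5 IT was Vip, with 5.02 to 71.1 and 3.44 to 48.7 CPM. The order of labels was alike in the 2 libraries (Spearman's rho 0.869 over 15 labels, a description of points that share libraries).

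Barcodes with 100 to under 500 UMIs that were not called as nuclei served as a measure of free RNA. Rest stood at 26.2 and 23.2 CPM there. Above that level in both libraries lay 11 labels, and below it in both lay 4 (L6 CT, Vip, Unknown and oligodendrocytes). If each nucleus had carried as many free UMIs as the median uncalled barcode, these would have added 1.18 and 0.586 CPM of Rest in L5 PT, 1.31 and 0.749 CPM in Unknown and 3.70 and 2.03 CPM in Micro-PVM. This estimate rests on uncalled barcodes only. Summed microglial markers stood at 439 and 785 CPM in Unknown, against 4146 and 4291 CPM in Micro-PVM. What part of the Rest level in Unknown came from microglial RNA was not tested.

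The share of nuclei with a Rest UMI followed depth as well as level. It was 26.7% (exact binomial 95% interval 22.2 to 31.7) of 352 male and 46.6% (40.7 to 52.5) of 290 female L5 PT nuclei, 14.4% and 24.6% of CTX-1, 7.51% and 16.0% of Micro-PVM and 2.22% and 7.06% of Unknown nuclei. With every nucleus thinned to 2300 UMIs the L5 PT shares became 15.3% and 14.6%, after 84 male and 9 female nuclei too shallow for it were left out. Thinned shares were 17.9% and 18.6% in L6 IT (28 and 59 nuclei), 8.81% and 9.70% in CTX-1, 7.22% and 11.8% in Micro-PVM, 0.625% and 3.12% in Unknown and 0 in L6 CT. L5 PT thus exceeded CTX-1 and Unknown in both libraries at equal depth. CTX-2, at 8% and 5.88% after thinning, had only 25 and 34 nuclei deep enough, with 2 Rest-positive nuclei in each library, so its place is not settled at equal depth. Its mean Rest level was 30.2 CPM on the thinned counts and 56.6 CPM on all of them, and those of L5 PT and L6 IT on thinned counts were 81.7 and 94.5 CPM.

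**Figure D1:**
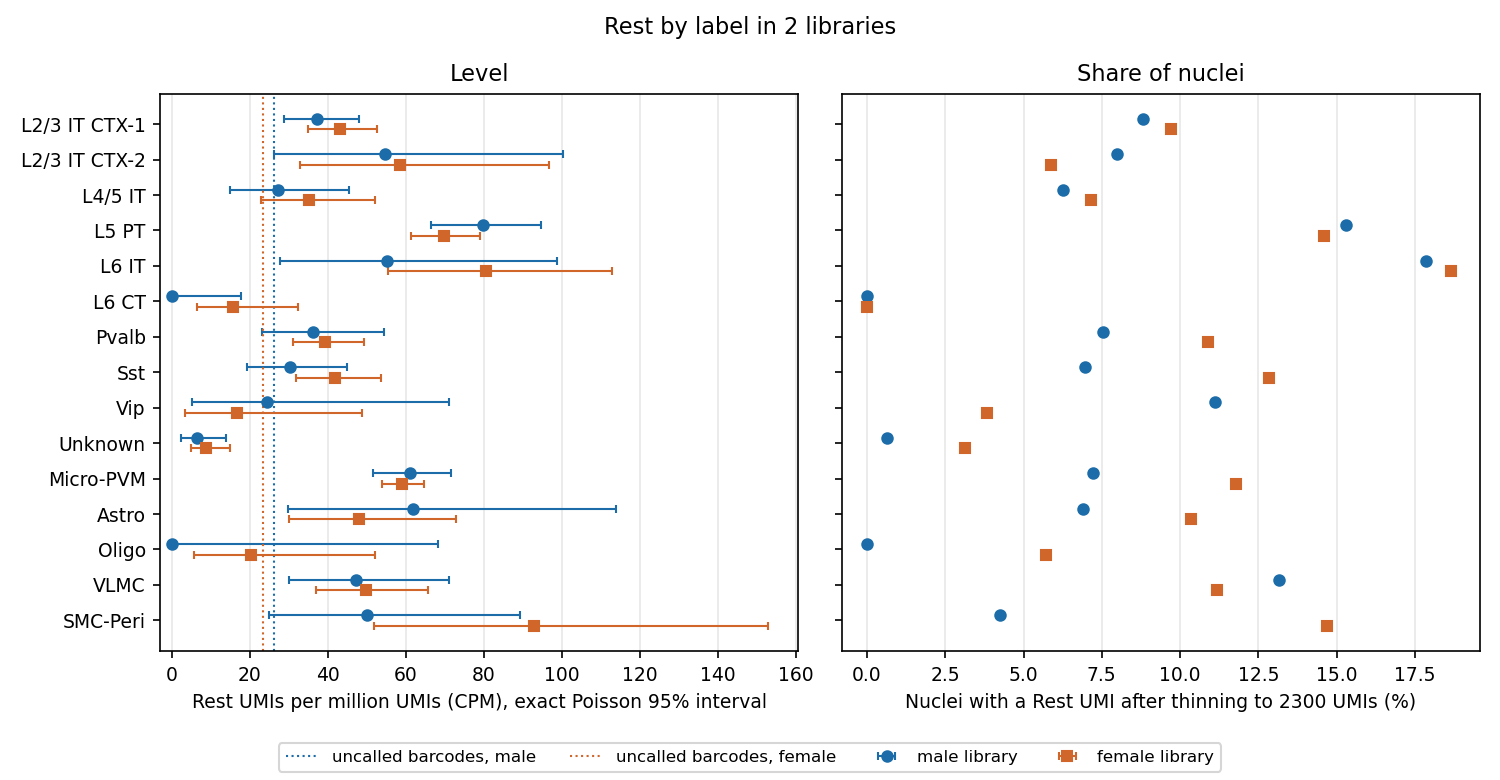
Left, Rest level (CPM) in each label and library with exact Poisson 95% intervals, dotted lines marking barcodes not called as nuclei. Right, the percent of nuclei with a Rest UMI after thinning to 2300 UMIs. L5 PT sits at 79.6 and 69.7 CPM and Unknown at 6.38 and 8.83 CPM, on opposite sides of the dotted lines.

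Levels of different genes are not ranked against each other, because 3′ capture with intronic reads counts long and A-rich introns more often. Rcor1 (ENSMUSG00000037896, chromosome 12:111039351-111115901, plus strand), the CoREST gene most studied in neurons, peaked in Pvalb neurons at 303 and 261 CPM (282 ± 29.7), where 51.9% and 46.3% of nuclei held a UMI after thinning. Micro-PVM followed at 207 and 177 CPM. L5 PT neurons had more Rcor1 than the L2/3 IT labels in both libraries, with 163 and 143 CPM in L5 PT, 135 and 96.6 CPM in CTX-1 and 87.3 and 54.7 CPM in CTX-2. L6 IT neurons, at 161 and 153 CPM, overlapped L5 PT. Sst neurons, at 132 and 99.4 CPM, did not share the high level of Pvalb neurons. In uncalled barcodes Rcor1 stood at 119 and 117 CPM, and 8 labels lay above and 4 below that in both libraries.

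Rcor2 (ENSMUSG00000024968, chromosome 19:7267325-7275225, plus strand), the family member tied to progenitors, was close to undetected, with 21 and 36 UMIs over all labels and 0 in at least 1 library in 8 of the 15 labels. All neuronal labels together held 3 and 12 UMIs (0.504 and 1.09 CPM), under the 1.75 and 1.63 CPM of uncalled barcodes. The Unknown nuclei held 8 and 14 UMIs (8.51 and 8.83 CPM), in 3.56% and 7.06% of nuclei, and VLMC 7 and 4 UMIs (14.4 and 3.98 CPM). Unknown thus lay above the neurons for Rcor2 in both libraries and below them for Rest, though on few UMIs. Rcor2 was too rare to enter any test.

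Rcor3 (ENSMUSG00000037395, chromosome 1:192098546-192138062, minus strand) encodes the remaining CoREST protein. It was highest in SMC-Peri (77.1 and 105 CPM), Pvalb (77.3 and 70.7 CPM), VLMC (76.0 and 66.7 CPM) and Sst (69.1 and 70.9 CPM), the only 4 labels above uncalled barcodes (55.8 and 53.8 CPM) in both libraries. L5 PT held 53.3 and 59.0 CPM, against 39.1 and 39.9 CPM in CTX-1, and Micro-PVM held 41.3 and 34.9 CPM. Over pooled labels inhibitory neurons stood at 69.5 and 69.8 CPM and excitatory ones at 43.4 and 47.4 CPM, without overlap.

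Sin3a (ENSMUSG00000042557, chromosome 9:57072040-57128366, plus strand) was highest in Micro-PVM at 56.1 and 55.8 CPM, with VLMC at 39.0 and 49.8 CPM and oligodendrocytes at 37.0 and 45.7 CPM, and these 3 were the labels above uncalled barcodes (30.0 and 29.3 CPM) in both libraries. No neuronal label was. Pvalb neurons, the Rcor1 peak, held 12.6 and 10.8 CPM of Sin3a, L5 PT 17.8 and 25.2 CPM and CTX-1 21.1 and 31.3 CPM. Vip neurons held 1 and 0 UMIs, and a count of 0 allows up to 16.7 CPM there.

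Htt (ENSMUSG00000029104, chromosome 5:34761740-34912534, plus strand) was the most even of the 5 measurable members. All 9 neuronal labels lay above uncalled barcodes (148 and 138 CPM) in both libraries, from 152 CPM in female CTX-2 to 311 CPM in female Vip neurons, and the highest neuronal mean was 1.55 times the lowest. L5 PT held 211 and 205 CPM, CTX-1 192 and 172 CPM, and Pvalb 178 and 178 CPM. Micro-PVM (137 and 135 CPM) and Unknown (141 and 132 CPM) lay below uncalled barcodes in both. Htt, Rest and Rcor1 each overlap another annotated gene on the same strand (Msantd1, Mir5098 and Gm48632). How reads from the shared stretches entered these counts was not examined.

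**Figure D2:**
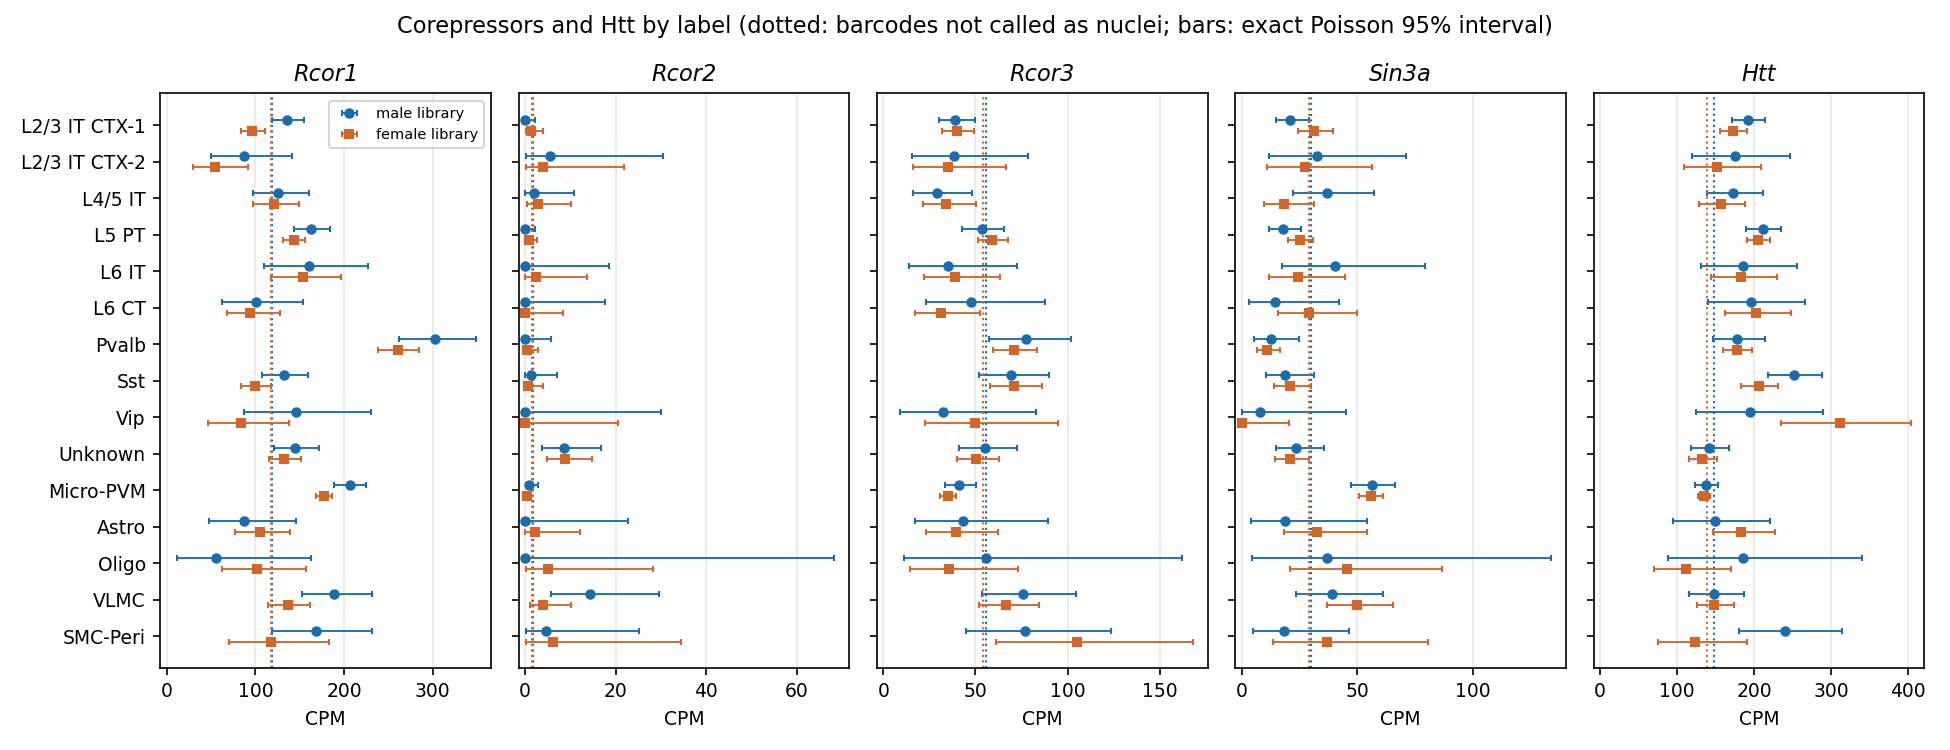
CPM of Rcor1, Rcor2, Rcor3, Sin3a and Htt in each label, circles for the male and squares for the female library, with exact Poisson 95% intervals and dotted lines at uncalled barcodes. Rcor1 stands out in Pvalb at 303 and 261 CPM and Sin3a in Micro-PVM at 56.1 and 55.8 CPM, while Rcor2 stays near 0.

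To place these differences among all genes, UMI sums per library and label entered edgeR's quasi-likelihood test, and a gene passed at a p-value under 0.05 after Benjamini-Hochberg adjustment over every gene tested. The labels were assigned from the expression of the same nuclei, so tests between labels are not independent of them. With 1 library per sex the p-values measure the spread between these 2 libraries within labels. They do not measure the spread among the labels averaged in a comparison. For L5 PT against the mean of the L2/3 IT labels, 12.8% of 8664 genes passed (6.76% higher, 5.99% lower). The members were selected on these same label levels, so their log2 fold changes are given here with SEs as a description, and the number past the threshold is set beside the share of all genes without being read as a result. For L5 PT it was 1 of 5. Rcor1 stood at a log2 fold change of 0.81 ± 0.18 (SE; the male library alone gave 0.70 and the female 1.13), Rest at 0.67 ± 0.26 (0.93 and 0.62), Rcor3 at 0.61 ± 0.22 (0.57 and 0.80), Htt at 0.31 ± 0.16 and Sin3a at -0.30 ± 0.35. In comparisons between labels, values of a library alone are differences of mean log2 CPM and not fits. The order of Rest and Rcor1 depended on the weight of the small CTX-2 label. With the L2/3 IT labels summed instead of averaged, an alternative chosen after the data were seen, Rest stood at 0.86 and Rcor1 at 0.50, and on thinned nuclei at 1.21 and 0.57. With the library as a block the number past the threshold was 3.

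For inhibitory against excitatory labels 24.6% of genes passed (11.9% higher, 12.7% lower), and 4 of the 5 members were past the threshold. Rcor3 stood at 0.69 ± 0.17, Rcor1 at 0.48 ± 0.13 and Htt at 0.33 ± 0.10, each above 0 in both libraries. Sin3a stood at -1.44 ± 0.38 (male alone -0.90, female alone -2.26). That average gives every label equal weight, Vip with its 1 and 0 Sin3a UMIs included, and the pooled sums were closer, at 15.4 and 14.3 CPM in inhibitory against 22.7 and 26.6 CPM in excitatory neurons. With the L2/3 IT labels summed, 2 members were past the threshold, with Rcor1 at 0.33 and Htt at 0.29. Rest stood at -0.32 ± 0.26, with opposite signs in the libraries alone (0.52 male, -0.46 female). The male L6 CT sum of 0 Rest UMIs enters the male value in the same way. In pooled sums Rest was lower in inhibitory neurons in both libraries, at 32.2 and 39.1 CPM against 51.6 and 55.6 CPM in excitatory ones.

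For Unknown against the excitatory labels 30.2% of 10642 genes passed (16.8% higher, 13.4% lower), and 3 of the 5 members were past the threshold. Rest stood at a log2 fold change of -2.13 ± 0.39 (-1.45 and -2.12 in each library), Rcor3 at 0.61 ± 0.20 and Rcor1 at 0.46 ± 0.17. When neuronal and Unknown nuclei with at least 2 microglial UMIs making up at least 2000 CPM were left out, also a choice made after the data were seen, Rest stood at -2.13, Rcor3 at 0.50 and Rcor1 at 0.42, with 1 member past the threshold. On thinned nuclei 0 were, with Rest at -1.13 (L6 CT held 0 thinned Rest UMIs), Rcor3 at 0.42 and Rcor1 at 0.43.

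For Micro-PVM against all neuronal labels 59.9% of genes passed (33.2% higher, 26.8% lower), the highest background of the comparisons, and 4 of the 5 members were past the threshold. Sin3a stood at 1.55 ± 0.25 (1.68 and 2.05 in the libraries alone) and Rcor1 at 0.56 ± 0.15 (0.76 and 0.80). Htt stood at -0.55 ± 0.17 (-0.28 and -0.36) and Rcor3 at -0.30 ± 0.18 (0.11 and -0.23). Rest stood at 0.68 ± 0.23, with 1.52 in the male library, where the L6 CT sum of 0 enters the neuronal mean, and 0.73 in the female. Pooled over neurons Rest was closer to microglia, at 46.5 and 50.3 CPM against 61.0 and 58.9 CPM. Leaving out every neuronal and Unknown nucleus with 2 or more microglial UMIs kept 671 of 1344 male and 73 of 1155 female neurons. With these, 0 members were past the threshold in the first 3 comparisons, in which 55, 309 and 1088 genes still passed, and 2 were against microglia. Rcor1 then stood at 0.57 ± 0.55 for L5 PT and 0.12 ± 0.36 for inhibitory neurons, and Rest stood at -2.01 for Unknown, with too few UMIs left for a usable SE.

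**Figure D3:**
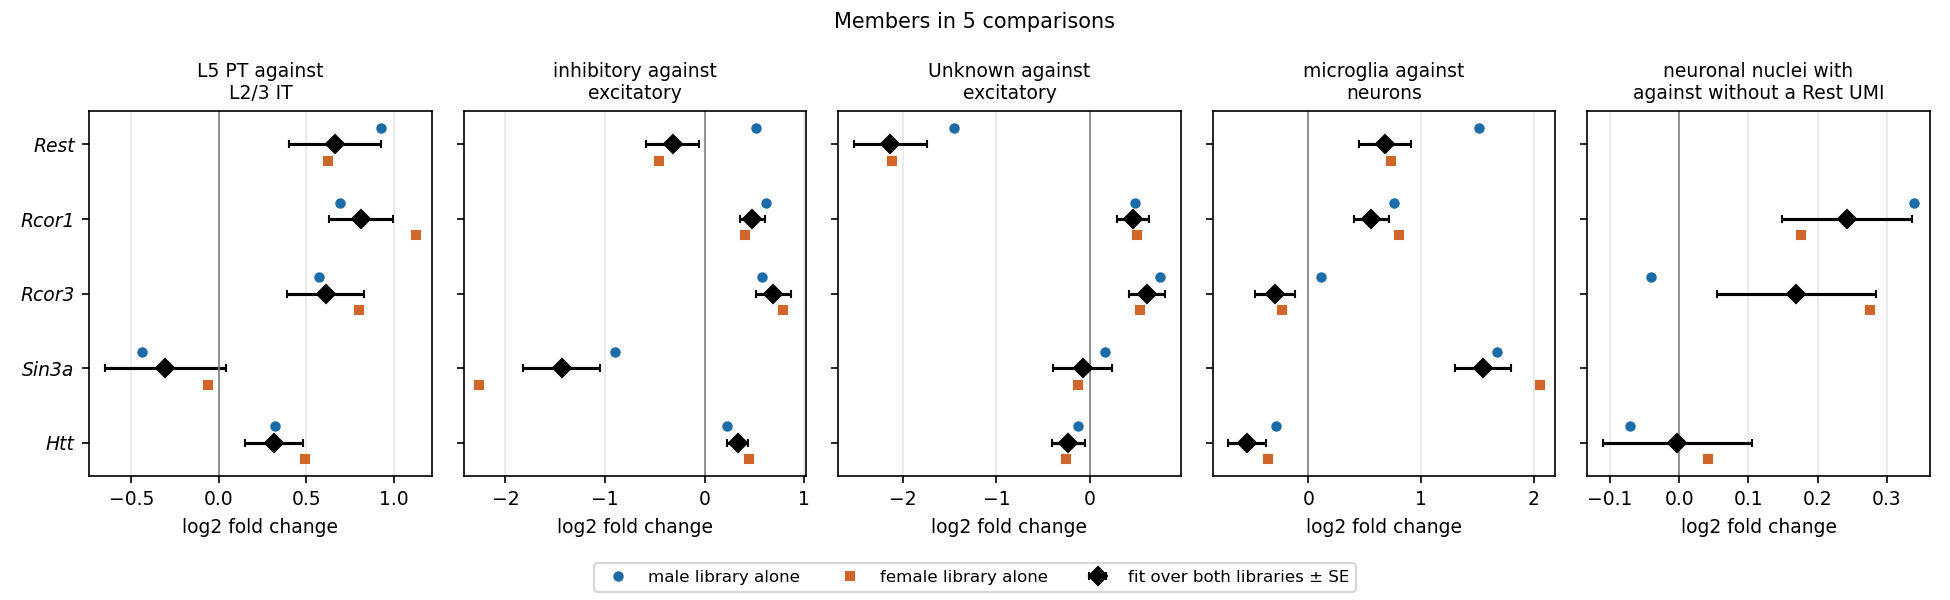
Log2 fold changes of the 5 members tested in 5 comparisons, diamonds for the fit over both libraries ± SE circles and squares for the male and female library alone. Rest is lowest in Unknown (-2.13) and Sin3a highest in microglia (1.55).

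The other genes of the pathway were taken as 5 lists chosen with earlier results of these data known. The first holds 13 enzymes and partners of CoREST. Against L2/3 IT labels 0 of the 12 tested were higher in L5 PT and 1 was lower, Cdyl, a chromodomain corepressor (log2 fold change -0.96, edgeR adjusted p = 0.00394). In inhibitory neurons only Ehmt1, a histone H3 lysine 9 methyltransferase, was higher (0.40). Unknown nuclei had 4 of 13 higher, where 16.8% of all genes were, and 0 lower: Gse1 (0.89), Zmym3 (0.82), Phf21a (0.63), which reads unmethylated histone H3 for LSD1, and Zmym2 (0.58). Micro-PVM had 7 of 13 higher, where 33.2% of all genes were, led by Zfp217 (4.39; 59.3 and 69.0 CPM against 2.85 and 3.08 CPM in neurons), Hmg20b (2.38) and Hdac1 (1.11), and 1 lower, the deacetylase Hdac2 (-0.76).

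The second list holds 14 SIN3 subunits other than Sin3a. In L5 PT 2 of 12 were lower, Sap18 (-1.48) and the histone chaperone Rbbp4 (-0.85), and 0 higher. In inhibitory neurons Sap130 was higher (0.47) and Suds3 lower (-0.73), and in Unknown nuclei 0 of 11 passed either way. In Micro-PVM 4 of 11 were higher, a share near the 33.2% of all genes: Arid4a (1.73; 243 and 243 CPM against 66.6 and 67.7 CPM in neurons), Brms1 (0.91), Sap130 (0.82) and Rbbp4 (0.55). Arid4b was lower (-0.43).

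Genes that control REST protein, RNA or location made up the third list. Srrm4, the splicing factor that directs Rest RNA to a truncated form in neurons, was far lower in Micro-PVM (30.1 and 22.8 CPM against 417 and 398 CPM in neurons, log2 fold change -3.94), lower in Unknown (-0.93) and higher in inhibitory neurons (0.34). Prickle1, which carries REST through the nuclear envelope, was higher in Unknown (841 and 979 CPM against 243 and 213 CPM in excitatory neurons, 2.12) and lower in inhibitory neurons (-0.65) and Micro-PVM (-1.18). Ctdspl, a small phosphatase that works with REST, was lower in L5 PT than in L2/3 IT (62.5 and 43.1 CPM against 143 and 140 CPM in CTX-1, -1.40) and was the only 1 of the 10 to pass there. It was also lower in inhibitory neurons (-0.94) and Micro-PVM (-0.90) and higher in Unknown (1.27). Altogether 3 of 10 were higher and 2 lower in inhibitory neurons, 5 and 1 in Unknown and 3 and 3 in Micro-PVM. Over all genes these shares were 11.9% and 12.7%, 16.8% and 13.4%, and 33.2% and 26.8%, so that the microglial counts lie near the background.

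Partners of huntingtin formed the fourth. None of 12 passed for L5 PT against L2/3 IT. Hip1r, an actin and clathrin linker, was lower in inhibitory neurons (-0.98), in Unknown (-2.06) and in Micro-PVM (-3.17). Hap1, which joins huntingtin to motor complexes and to REST, was higher in Unknown (22.3 and 18.9 CPM against 6.59 and 8.15 CPM in excitatory neurons, 1.85), as were Pacsin1 (1.33) and Sh3gl3 (0.97), while the autophagy receptor Optn was lower (1.06 and 0.631 CPM against 26.1 and 33.0 CPM, -4.69). In Unknown 3 of 13 were higher and 2 lower, and in Micro-PVM 2 (Setd2 and Zdhhc13) and 5, against the shares of all genes just given.

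The fifth list holds 34 neuronal genes known as REST targets. In Micro-PVM 29 of the 30 tested were lower than in neurons, where 26.8% of all genes were, with a median log2 fold change of -2.57 against 0.17 over all genes, and Calb1 alone did not pass. The list is made of neuronal genes. Scg2, shown above with both arms of RE1, stood at 10.4 and 6.96 CPM in Micro-PVM and at 114 and 121 CPM in neurons (-3.67), and the microRNA precursor gene Mir9-3hg at 16.4 and 14.3 CPM against 256 and 235 CPM (-4.08).

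Between L5 PT and L2/3 IT the target list did not move one way. Of 29 tested 5 were higher (6.76% of all genes were) and 2 lower (5.99%) in L5 PT, with a median of 0.10 against -0.02 over all genes. Among the higher were Oprm1, the mu opioid receptor (1.61), Cplx1, complexin 1 (44.1 and 37.3 CPM against 14.4 and 9.98 CPM in CTX-1, 1.47), Stmn2, a microtubule regulator (473 and 412 CPM against 329 and 244 CPM, 1.12), and Snap25. Lower were the chloride extruder Slc12a5 (17.1 and 22.3 CPM against 42.1 and 44.0 CPM in CTX-1, -1.09) and the NMDA receptor subunit Grin2b (587 and 630 CPM against 1093 and 984 CPM, -0.62). In inhibitory against excitatory neurons 5 were higher, among them Cplx1 (1.51) and Crh (1.63, with 1.07 and 2.88 in the libraries alone), and 3 lower, Snap25 (-0.75), Grin2a (-0.72) and Gria2 (-0.52).

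Unknown nuclei, with the lowest mean Rest level, moved both ways over the same list. Of 30 tested 13 were higher (16.8% of all genes were) and 11 lower (13.4%) than in excitatory neurons, with a median of -0.04 against 0.02 over all genes. Calb1 (37.2 and 37.2 CPM against 2.95 and 2.67 CPM, log2 fold change 4.76), Rph3a (3.73), the neurotrophin Bdnf (154 and 151 CPM against 47.2 and 32.3 CPM, 2.72) and Unc13a (315 and 371 CPM against 69.9 and 73.5 CPM, 2.27) were highest. Mir124-2hg (6.38 and 1.89 CPM against 73.1 and 63.2 CPM, -4.02), Stmn2 (16.0 and 17.0 CPM against 372 and 327 CPM, -3.91) were among the lowest. Crh, at 0 and 0.631 CPM against 13.2 and 5.34 CPM, stood at -3.38 (male alone -4.57, female alone -0.77). Of the 3 target promoters printed above, Gria2 and Unc13a belong to genes higher in Unknown and Scg2 to a gene that was lower.

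**Figure D4:**
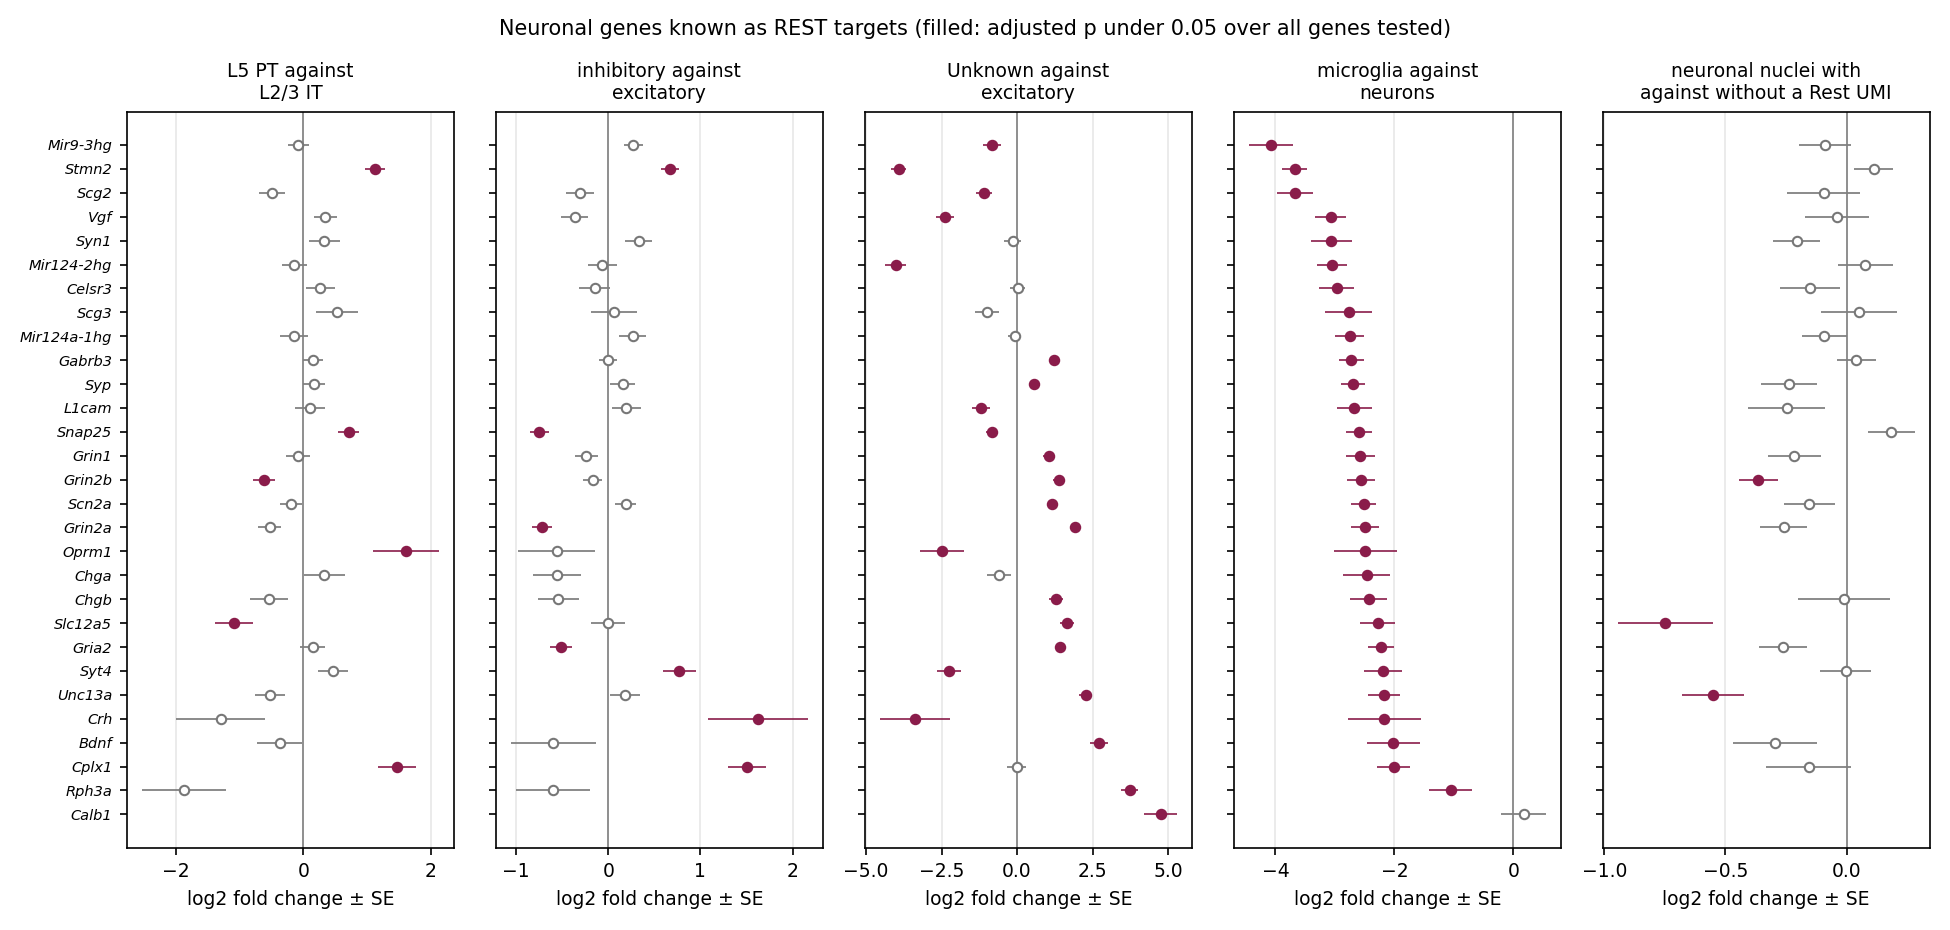
Log2 fold changes ± SE of genes of the REST target list in 5 comparisons, ordered by the microglial comparison, with filled points where the edgeR adjusted p was under 0.05. Over the whole list, 29 of 30 pass below 0 in microglia, 13 pass above and 11 below 0 in Unknown nuclei, and 3 pass in nuclei with a Rest UMI, all below 0.

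A comparison that the choice of members did not use was made inside labels, between neuronal nuclei with and without a Rest UMI, with library and label as a block. In 13 strata (6 male, 7 female) 540 nuclei with a Rest UMI were summed against 1736 without. The p-values here measure the spread among these 13 strata, which were cut from only 2 libraries and share their animals. They do not measure a spread among libraries or animals. Nuclei with Rest were deeper in all 13 strata, by 1.18 to 4.19 times in median UMIs (4748.5 against 3567 in male and 13087 against 8857 in female L5 PT). Of 5548 genes 2.18% passed, 20 higher (0.36%) and 101 lower (1.82%). The other members did not: Rcor1 stood at 0.24 ± 0.09 (adjusted p = 0.218), Rcor3 at 0.17 ± 0.11 (adjusted p = 0.577) and Htt at -0.00 ± 0.11 (adjusted p = 0.998, edgeR throughout), and Sin3a and Rcor2 were too rare to be tested.

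Among the lists, 3 of 25 REST targets were lower in nuclei with a Rest UMI, where 1.82% of all genes were, and 0 higher. They were Slc12a5 (-0.75 ± 0.20, edgeR adjusted p = 0.0369), Unc13a (-0.55 ± 0.13, adjusted p = 0.0158) and Grin2b (-0.36 ± 0.08, adjusted p = 0.00988), each below 0 in both libraries alone. Slc12a5 no longer passed without the nuclei over 2000 microglial CPM, as was true of Oprm1 for L5 PT and Srrm4 for inhibitory neurons. The median of the list was -0.15 against -0.01 over all genes, with 19 of 25 below 0. Prickle1 was lower as well (-0.44 ± 0.11, adjusted p = 0.0313), and none of the 10 CoREST partners, 10 SIN3 subunits and 11 huntingtin partners tested passed. The lowest adjusted p-values, chosen after their values were seen, were those of Dpp10, an auxiliary subunit of potassium channels (-1.19, edgeR adjusted p = 1.06e-06), Cit (-0.85), Etl4 (-0.87) and Il1rapl1, a synaptic adhesion protein (-0.71), and of the kinesin Kif17 (0.48) among higher genes.

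Depth moved with this comparison. Thinning to 2300 UMIs left 7 strata with 173 nuclei with and 1220 without a Rest UMI, and 1653 genes tested. Rest status was taken anew from the thinned counts, so a nucleus with a Rest UMI at full depth could count as without. Female L5 PT had 135 nuclei with a Rest UMI at full depth and 41 after thinning. Between these groups, which are not those of the full-depth comparison, 1 gene passed, against 121 before. That gene was Htt, at a log2 fold change of 0.77 ± 0.16 (edgeR adjusted p = 0.0472), while Grin2b stood at -0.31 (adjusted p = 0.581) and Prickle1 at 0.00. Slc12a5 and Unc13a were too rare there to be tested, and 121 genes had an unadjusted p under 0.05. By nuclei, an Htt UMI was found after thinning in 49.0% (38.6 to 59.4) of 96 male nuclei with Rest against 35.9% (32.7 to 39.2) of 863 without, and in 50.4% (41.0 to 59.8) of 117 female nuclei against 33.0% (30.0 to 36.1) of 921, with labels mixed in unequal shares. For Rcor1 these shares were 38.5% against 28.5% in the male library but 25.6% against 26.0% in the female one, and for Rcor3 they were 11.5% against 11.5% and 11.1% against 9.99%. Without the block 0 genes passed by edgeR, with 243 at an unadjusted p under 0.05. By the male library alone 5 genes passed (Dpp10, Gm28928, Il1rapl1, Slit2 and Nell1, named after their values were seen) and by the female library alone 59.

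The genes whose levels followed Rest most closely over the 30 sums of label and library, of 9231 with a mean of at least 10 CPM, included Fam173b (Pearson's r 0.823), Gskip (0.816), Tbp (0.808) and Skiv2l (0.789). Among the members r was 0.358 for Rcor1, 0.167 for Sin3a, 0.04 for Rcor3 and -0.10 for Htt. These values describe sums that share 2 libraries and differ in depth.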

How the data were processed

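Single-nucleus libraries (10X Genomics 3′ v3) of sorted GFP+ nuclei were used, 1 male and 1 female. Per the labels, the authors made UMI counts with Cell Ranger (3.1.0 in the submitters' processing notes) on mm10, and their methods describe a pre-mRNA reference, so that intronic reads count. The deposited counts are whole, unnormalized UMIs per gene and barcode, in matrices of called barcodes and of all barcodes. The authors removed nuclei with many genes or a high mitochondrial share, and transferred labels from a motor cortex atlas with Seurat. Their SCT-normalized values were not used. The UMI total in the label table equalled that in the matrix for 3955 of 4003 male and 4005 of 4168 female nuclei.

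UMIs were summed per library and label (at least 50 nuclei over both libraries). CPM is relative to all UMIs of the sum. Intervals are exact Poisson or Clopper-Pearson, at 95%, and floors are 3 counts. Uncalled barcodes were those with 100 to under 500 UMIs (72072 male, 74612 female), a range chosen after the data were seen. Thinning drew 2300 UMIs from each nucleus without replacement. Sums were tested with edgeR 4.0.16 (filterByExpr, TMM, glmQLFit, glmQLFTest, Benjamini-Hochberg at 0.05) in R 4.3.3, in 1 fit of the 18 neuronal sums, 1 of all 30 sums, and 1 of the 13 strata by Rest status with at least 10 nuclei in each state. A single library alone gave log2 values without a fit or test, as differences of label means of log2(CPM + 0.5) with TMM factors. The fit over both libraries is estimated in another way and can lie outside the 2 values. In the last comparison each library alone was fitted and tested. DESeq2 1.42.0, RLE factors, no filter, a library block, thinned nuclei, leaving out neuronal and Unknown nuclei with at least 2 microglial UMIs, and leaving out each library were alternatives.

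Within a library all sums share their animals. Over 36 pairs of neuronal labels the correlation of their deviations between libraries ran from 0.03 to 0.472 (median 0.156, 27 over 0.1), over 8664 genes.

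The members and lists were chosen with earlier results of these data known. Named were all 6 members, at most 4 list genes in each direction per comparison with the largest fold change among those passing and changing the same way in both libraries, and the 5 genes most like Rest by Pearson's r of log2(CPM + 1). Some genes that this rule names are not reported here and are not drawn, though the counts include them. Promoter sequences are from RefSeq. Counting, intervals and plotting ran in Python 3.11.15 (pandas 2.3.3, numpy 2.4.6, matplotlib 3.10.9, scipy 1.17.1).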

Additional observations from a re-analysis of the deposited data

Results flagged for a closer look

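In 5 of the 23 comparisons of a member with a value in each library alone, the male and female libraries moved in opposite directions, and in 18 they moved the same way. With 1 library per sex these differences were not tested, and sex, pool and depth cannot be told apart. For Rest, inhibitory against excitatory labels gave log2 fold changes of 0.52 (male) and -0.46 (female), a difference (female minus male) of -0.98. The male L6 CT sum of 0 Rest UMIs enters the male value, which gives every label equal weight. Pooled over nuclei, Rest was lower in inhibitory neurons in both libraries (32.2 and 39.1 CPM against 51.6 and 55.6 CPM). For Sin3a, Unknown against excitatory neurons gave 0.16 and -0.13, a difference of -0.29. For Rcor3, microglia against neurons gave 0.11 and -0.23, a difference of -0.34, and nuclei with against without a Rest UMI gave -0.04 and 0.28, a difference of 0.32. For Htt the last comparison gave -0.07 and 0.04, a difference of 0.11. Fits over both libraries gave no call for any of these 5.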

How the results depend on the processing

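DESeq2 and RLE factors changed no comparison's count of genes, list genes or members passing by over 1.5 times in total, but DESeq2 called 35 genes higher with a Rest UMI against 20. As a replicate block, the library raised genes passing to 1645 (L5 PT against L2/3 IT), 2452 (inhibitory against excitatory), 3749 (Unknown) and 6986 (microglia), each within 1.5 times, and members from 1 to 3 in the first. The stratum block carried the Rest-UMI comparison: 0 genes and 0 list genes passed without it. Without neuronal and Unknown nuclei holding 2 or more microglial UMIs (671 of 1344 male and 73 of 1155 female neurons kept), genes passing were 55 for L5 PT (0 list genes higher, 0 lower, 0 members), 309 for inhibitory neurons (0 higher, 1 lower, 0 members), 1088 for Unknown (13 higher, 6 lower, 0 members) and 6 for the Rest UMI (0 list genes lower), with 2 members for microglia. Ift57 turned from -0.76 to 0.47 in microglia. Rcor1 in Pvalb went from 282 to 231 CPM and Htt in Vip from 253 to 100.4 CPM, the female library keeping 1 Vip nucleus and no Htt UMI. With the stricter microglial limit, added after the data were seen (1285 and 984 neurons kept), members past the threshold for Unknown went from 3 to 1, the one such change in the counts of genes, of list genes over all lists and of members; within lists, REST targets lower in L5 PT went from 2 to 4 and CoREST partners lower in Unknown from 0 to 1. With L2/3 IT labels summed, also added, 2 members passed for inhibitory neurons. On thinned nuclei genes passing were 591 for L5 PT (3 list genes lower), 1064 for inhibitory neurons (1 member), 2024 for Unknown (0 members) and 1 for the Rest UMI (1 member, 0 list genes lower), Prickle1 turned to 0.0029, and Rest in L5 PT was 81.7, Rcor1 in Pvalb 322 and Sin3a in Micro-PVM 60.6 CPM. Without the filter on low counts 339 genes and 9 list genes lower passed for the Rest UMI, and with 1 library 5 to 59 genes and 0 to 1 list genes lower. The cause was not tested for any of these, beyond the fewer nuclei, libraries or genes each alternative holds by construction. On thinned nuclei the Rest status was also taken anew from the thinned counts. Over all alternatives 791 log2 fold changes kept direction and, where an adjusted p was available, side of the threshold. Values of 1 library alone in the comparisons between labels had no test, so they were judged by direction only. Of the rest 97 no longer passed, 4 newly passed, 16 moved and 2 reversed, while 360 levels held and 84 moved. Few UMIs limit the Rest levels of Vip, L6 CT and oligodendrocytes, which rest on 7 or fewer a library.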
